A study of Mus musculus with 9 samples.

Results

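The 37 genes described here encode the core machinery of macroautophagy, from the kinase complex that starts an autophagosome to the receptors that load it with cargo. They were found by symbol among 55487 gene identifiers. Of the 37, 36 had enough counts to be tested among 13043 genes. The exception was Wipi1, a reader of phosphatidylinositol 3-phosphate (PI3P), which had 3 to 15 counts per library. The cells were lymph node naive CD4+ T cells of WT C57BL6/J mice, in 3 groups of 3 libraries. The first group spent 20 h in culture with 10 ng/mL of recombinant IL-1b, the second spent the same time in culture without it, and the third was prepared fresh and had no treatment. The comparisons ask how these transcripts stand in cultured cells with and without the cytokine and in cells that were never cultured. IL-1b is an inflammatory cytokine that signals through the IL-1 receptor. The labels do not say whether replicates came from separate animals or cultures, so the p-values may measure technical spread only. They also do not say how the cells were purified.

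Autophagy encloses cytoplasm in a double membrane that is delivered to the lysosome for breakdown. The ULK complex starts the process and a class III PI3-kinase complex marks the site with PI3P. Atg9 and Atg2 proteins supply lipid, and a pair of ubiquitin-like conjugation reactions attaches Atg8 proteins (LC3 and GABARAP) to the membrane, where cargo receptors bind them. In naive T cells autophagy is known to support survival and the clearance of mitochondria and endoplasmic reticulum. Transcript levels do not measure the flux of the pathway.

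Library totals ran from 13518818 to 23056660 expected counts. A floor of 3 counts is 0.130 to 0.222 CPM. All 10 markers of naive CD4 T cells were detected, with summed levels of 4136 to 4218 TPM in IL-1b-treated, 4606 to 4681 in cultured and 5986 to 6077 in fresh libraries. Summed B cell, neutrophil, NK, dendritic and erythroid markers were highest in fresh libraries, and CD8, myeloid and stromal markers were not. The 10 B cell markers summed to 9.99 to 11.4 TPM in IL-1b-treated, 9.28 to 11.9 in cultured and 165 to 214 in fresh libraries, and all 10 were lower in cultured than in fresh cells. Neutrophil markers (8 genes) summed to 0 to 1.49 TPM in IL-1b-treated, 0.31 to 0.89 in cultured and 18.6 to 47.9 in fresh libraries. Of these 8, 4 stood at 0 in all IL-1b-treated, 3 in all cultured and 0 in all fresh libraries. NK markers (6 genes) summed to 10.1 to 13.7 TPM in IL-1b-treated, 13.6 to 17.2 in cultured and 55.7 to 56.9 in fresh libraries. Both CD8 markers together reached 37.9 to 42.4 TPM in IL-1b-treated, 41.2 to 50.1 in cultured and 23.8 to 25.6 in fresh libraries. The 10 myeloid markers summed to 92.8 to 104 TPM in IL-1b-treated, 85.2 to 90.7 in cultured and 75 to 88.9 in fresh libraries. Of 9 tested, 6 were lower after culture and 1, Cst3, was higher. The 6 stromal markers (1 tested) reached 140 to 149 TPM in IL-1b-treated, 180 to 181 in cultured and 149 to 162 in fresh libraries. Cells whose markers differed are part of every comparison against fresh cells below, and their role in the results was not tested. In bulk RNA, fewer cells of a type and less RNA per cell cannot be told apart.

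Levels below are TPM, which is per transcript length. Differences are log2 fold changes ± SE of TMM-scaled counts. They are relative to the median gene, whose difference was -0.01 for IL-1b-treated against cultured cells and 0.00 for cultured against fresh cells. A gene is called at an adjusted p of at most 0.05 by the quasi-likelihood test of edgeR (Benjamini-Hochberg adjusted). On the log2(TPM + 0.5) scale the median gene itself stood at -0.28 in IL-1b-treated against cultured cells, -0.21 in cultured against fresh cells and -0.50 in IL-1b-treated against fresh cells. A gene can therefore be higher relative to other genes and lower in TPM. The sign of the difference was not the same on both scales for 14 of 36 members in IL-1b-treated against cultured cells, for 6 in cultured against fresh cells and for 10 in IL-1b-treated against fresh cells. The comparisons share groups and so are not independent.

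In cultured against fresh cells, 27 of 36 members were called, where 58.2% of all genes were. Of these, 18 rose and 9 fell, beside 29.4% and 28.9% of all genes. The median member difference was 0.13, against 0.00 for all genes. TPM values did not overlap between these groups for 10 members that were higher and 12 that were lower, beside 17.3% and 43.1% of all genes. All 5 Atg8 family genes rose, with a median of 0.61, and the protease gene Atg4a and the mitophagy receptor gene Bnip3l rose with them. Atg101, a subunit of the ULK complex, fell 6.99-fold. Genes for lipid transfer (Atg2b), the PI3-kinase complex (Pik3r4, Uvrag, Ambra1) and the E2-like enzyme Atg3 fell by 0.34 to 0.58. Each other role of more than 1 gene held positive and negative differences, as the plot of fold changes by role shows.

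In IL-1b-treated against cultured cells, 15 of 36 members were called, where 28.9% of all genes were. Relative to the median gene 9 were higher, beside 15.6% of all genes, and 6 were lower, beside 13.3%. The median was 0.06, against -0.01 for all genes. The called differences were small: apart from that of the barely detected Optn, they lay between -0.43 for Atg2a, a lipid transfer protein gene, and 0.51 for Atg5, a conjugation enzyme gene. On the TPM scale no member was called higher and 13 were called lower by limma with the same adjustment, beside 2.22% and 34.3% of all genes. The TPM values of IL-1b-treated and cultured libraries did not overlap for 18 members, all lower, beside 45.0% of all genes lower and 3.76% higher. Atg2a was the only member whose call was kept in all 21 alternative settings.

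In IL-1b-treated against fresh cells, 25 of 36 members were called, where 65.5% of all genes were: 16 higher, beside 32.9%, and 9 lower, beside 32.6%. The median was 0.14, against -0.01 for all genes. TPM values did not overlap for 6 members that were higher and 20 that were lower, beside 12.6% and 56.4% of all genes. The summed level of the 37 members was 1494 to 1532 TPM in IL-1b-treated, 1706 to 1732 in cultured and 1801 to 1913 in fresh libraries, without overlap. Atg101 alone made up 268 to 287 TPM of this sum in fresh libraries and 28.9 to 36.6 in both cultured groups. Its drop from fresh to cultured libraries without IL-1b was larger than the difference between their sums, so their order rests on Atg101. In log2(TPM + 0.5) of IL-1b-treated against cultured cells, the median member stood at -0.24 and the median gene at -0.28. The members' share of all counts was 0.248% in each IL-1b-treated library, 0.257 to 0.264% in cultured and 0.245 to 0.250% in fresh libraries. The sum and the share therefore order the groups differently.

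**Figure D1:**
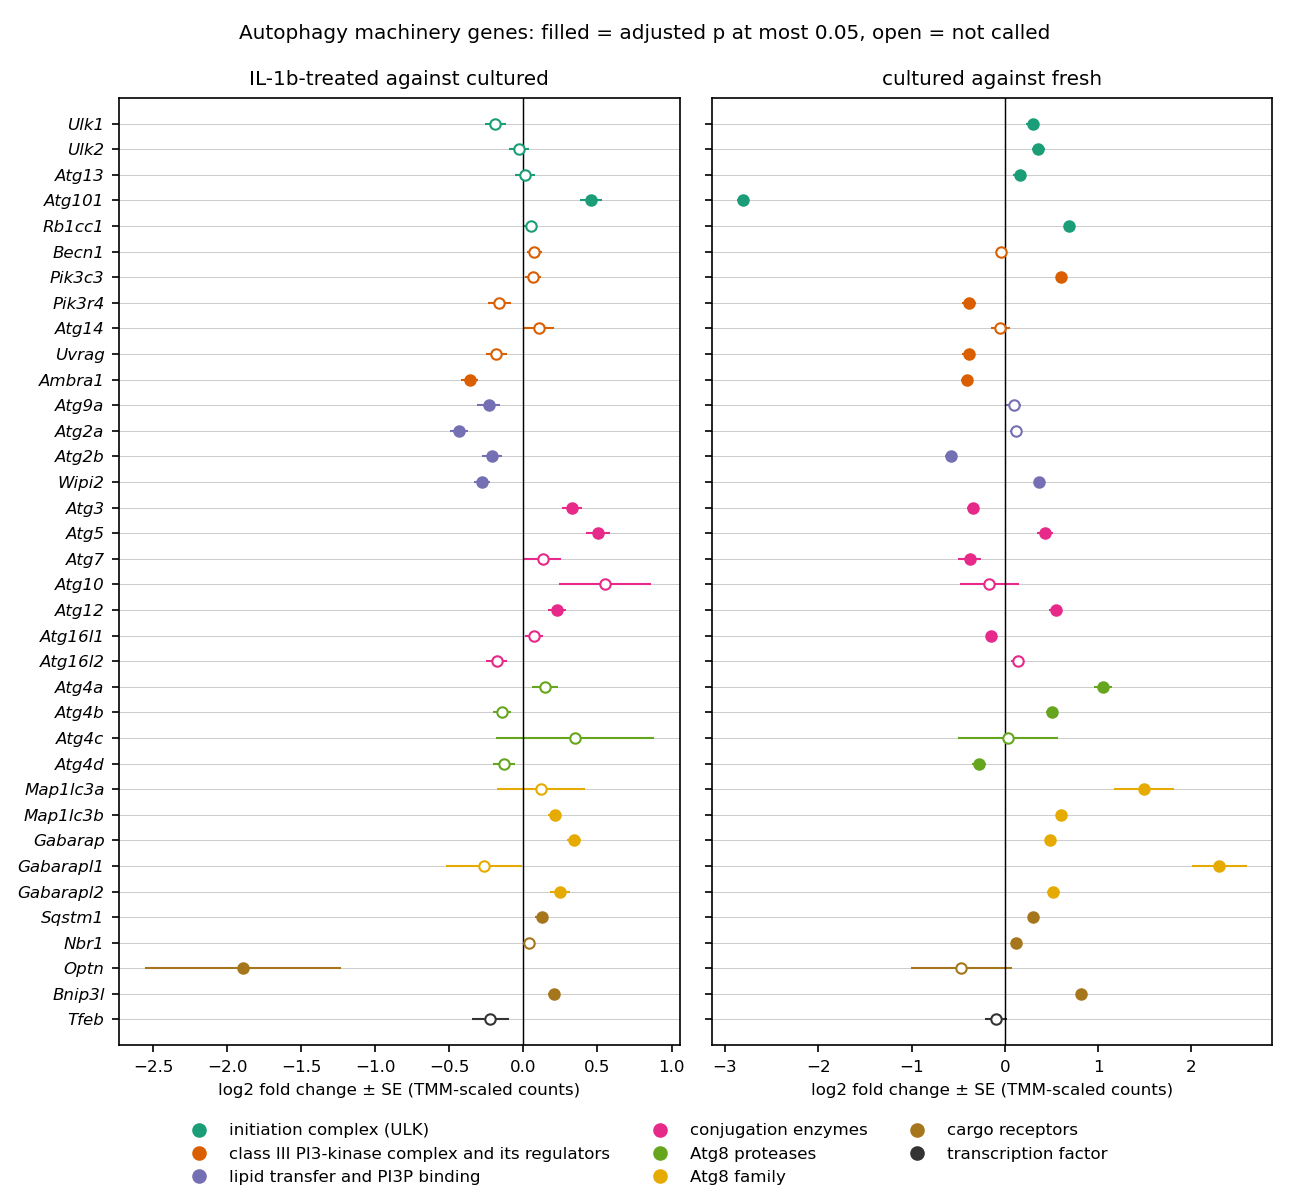
Log2 fold change of TMM-scaled counts (x axis, bars are SE) of the 36 tested members (y axis, coloured by role), for IL-1b-treated against cultured cells on the left and cultured against fresh cells on the right; 3 libraries a group. Filled points are called. In cultured against fresh cells all 5 Atg8 family genes lie right of 0 and Atg101 lies at -2.81, while with IL-1b all members but Optn lie between -0.43 and 0.55.

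The ULK complex consists of the kinases Ulk1 and Ulk2 with the scaffold Rb1cc1 (FIP200) and the adaptors Atg13 and Atg101. Atg101 (ENSMUSG00000037204, chr15:101284272-101290945, plus strand, mm10) was the most abundant of these genes in fresh cells and changed more than any other member in cultured against fresh cells. Its level was 33.8, 35.8 and 34.7 TPM in IL-1b-treated cells, 36.6, 30.1 and 28.9 TPM in cultured cells and 287, 286 and 268 TPM in fresh cells. The fresh libraries lay far above all cultured ones, and both cultured groups overlapped. The difference was -2.81 ± 0.07 in cultured against fresh cells (adjusted p = 6.92e-20) and -2.35 ± 0.06 in IL-1b-treated against fresh cells (adjusted p = 4.16e-19). IL-1b-treated against cultured cells stood at 0.46 ± 0.07 (adjusted p = 4.24e-05), but at 0.13 on the TPM scale, where it was not called. Atg101 shares no exon bases with another annotated gene.

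The nearest gene upstream on the same strand, Nr4a1, ends 9477 bases before Atg101. Nr4a1 encodes a nuclear receptor known as an immediate early gene of T cell receptor signalling. It had 2.27 ± 0.76 TPM in IL-1b-treated cells, 2.96 ± 0.44 in cultured cells and 50.7 ± 1.11 in fresh cells (SD, n = 3 each). Its difference in cultured against fresh cells was -3.58 ± 0.16 (adjusted p = 1.03e-14), and in IL-1b-treated against cultured cells 0.06 ± 0.20 (adjusted p = 0.863). Both genes of this locus were thus low after culture. Any link between them was not tested. The 120 bases before the RefSeq start of Atg101 (GRCm38.p6, chr15:101284181-101284300, plus strand) are shown because this gene changed most. The capitals mark its only match among the motifs searched, CCGGAAGT in reverse complement, the core bound by ETS factors.
Atg101: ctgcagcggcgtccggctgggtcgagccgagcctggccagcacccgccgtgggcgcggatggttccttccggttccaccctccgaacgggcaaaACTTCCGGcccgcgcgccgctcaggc
Of the 35 promoters of members in the RefSeq table, 1 (2.86%) held this motif on either strand in the 250 bases before the start, as did 2.88% of all 32851 promoters. A match describes the letters only.

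The other ULK complex genes moved the opposite way to Atg101 in cultured against fresh cells. Rb1cc1 had 52.9, 62.8 and 67.1 TPM in IL-1b-treated, 79.6, 70.1 and 73.9 in cultured and 48.1, 66.7 and 56.6 in fresh cells. The cultured libraries lay above the other groups, which overlapped. Rb1cc1 rose by 0.69 ± 0.05 in cultured against fresh cells (adjusted p = 8.93e-12) and differed by 0.05 ± 0.04 with IL-1b in the counts (adjusted p = 0.441) and by -0.29 in TPM, where it was not called either. Ulk1 (0.30 ± 0.07) and Ulk2 (0.36 ± 0.07) also rose relative to the median gene, without a call in TPM. Atg13 stood at 0.16 ± 0.07 in the counts and at -0.12 in TPM, and its call was lost without fresh replicate 2 or 3 or cultured replicate 1 or 3 (adjusted p 0.14 to 0.228). Rb1cc1 shares 558 exon bases with a gene on the opposite strand.

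The class III PI3-kinase complex joins the lipid kinase Pik3c3 (Vps34) and its regulatory subunit Pik3r4 (Vps15) to Becn1, with Atg14 or Uvrag as alternative partners. Ambra1 is a regulator of Becn1. Within this complex the kinase and its regulatory subunit moved in opposite directions after culture. Pik3c3 had 33.6, 32.8 and 30.9 TPM in IL-1b-treated, 38.4, 39.3 and 38.3 in cultured and 29.7, 31.2 and 29.6 in fresh cells. It rose by 0.61 ± 0.05 in cultured against fresh cells (adjusted p = 1.79e-09), whose libraries did not overlap. Pik3r4 had 14.8, 9.91 and 11.1 TPM in IL-1b-treated, 15, 15.3 and 14.3 in cultured and 22.7, 25.1 and 23.7 in fresh cells. It was lower in cultured than in fresh cells by -0.38 ± 0.08 (adjusted p = 0.00015), and in IL-1b-treated than in fresh cells by -0.54 ± 0.08 (adjusted p = 1.47e-06).

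Uvrag, which shares 1589 exon bases with Gm45187 on the opposite strand, followed Pik3r4. It had 15.4, 18.8 and 10.7 TPM in IL-1b-treated, 20.7, 20.3 and 19.1 in cultured and 28, 27.4 and 33.6 in fresh cells. The groups did not overlap, and the count difference was -0.39 ± 0.07 in cultured against fresh cells (adjusted p = 4.85e-05) but -0.18 ± 0.07 with IL-1b (adjusted p = 0.0626). Ambra1 was lower in both steps. Its level was 14.2, 15.4 and 13.9 TPM in IL-1b-treated, 24.7, 22.2 and 23.3 in cultured and 35.8, 35.1 and 37.4 in fresh cells, again without overlap. The difference was -0.36 ± 0.06 in IL-1b-treated against cultured cells (adjusted p = 5.62e-05) and -0.41 ± 0.06 in cultured against fresh cells (adjusted p = 1.7e-06). Both Ambra1 calls were lost when the trend with GC content and length was removed from each library, with adjusted p up to 0.0716 and 0.104, and the difference from fresh cells, -0.77 ± 0.06, was called in every setting.

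Becn1, the most abundant of the complex, and Atg14 were called in no comparison. Becn1 had 132, 112 and 153 TPM in IL-1b-treated, 151, 160 and 138 in cultured and 194, 163 and 139 in fresh cells, and the groups overlapped throughout. Its difference was 0.07 ± 0.05 with IL-1b and -0.04 ± 0.05 after culture, with adjusted p of 0.285 and 0.466, and with IL-1b it stood at -0.19 in TPM. Becn1 shares 3104 exon bases with Cntd1 on the opposite strand and had fractional expected counts in all 9 libraries, so its count may hold reads of both.

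**Figure D2:**
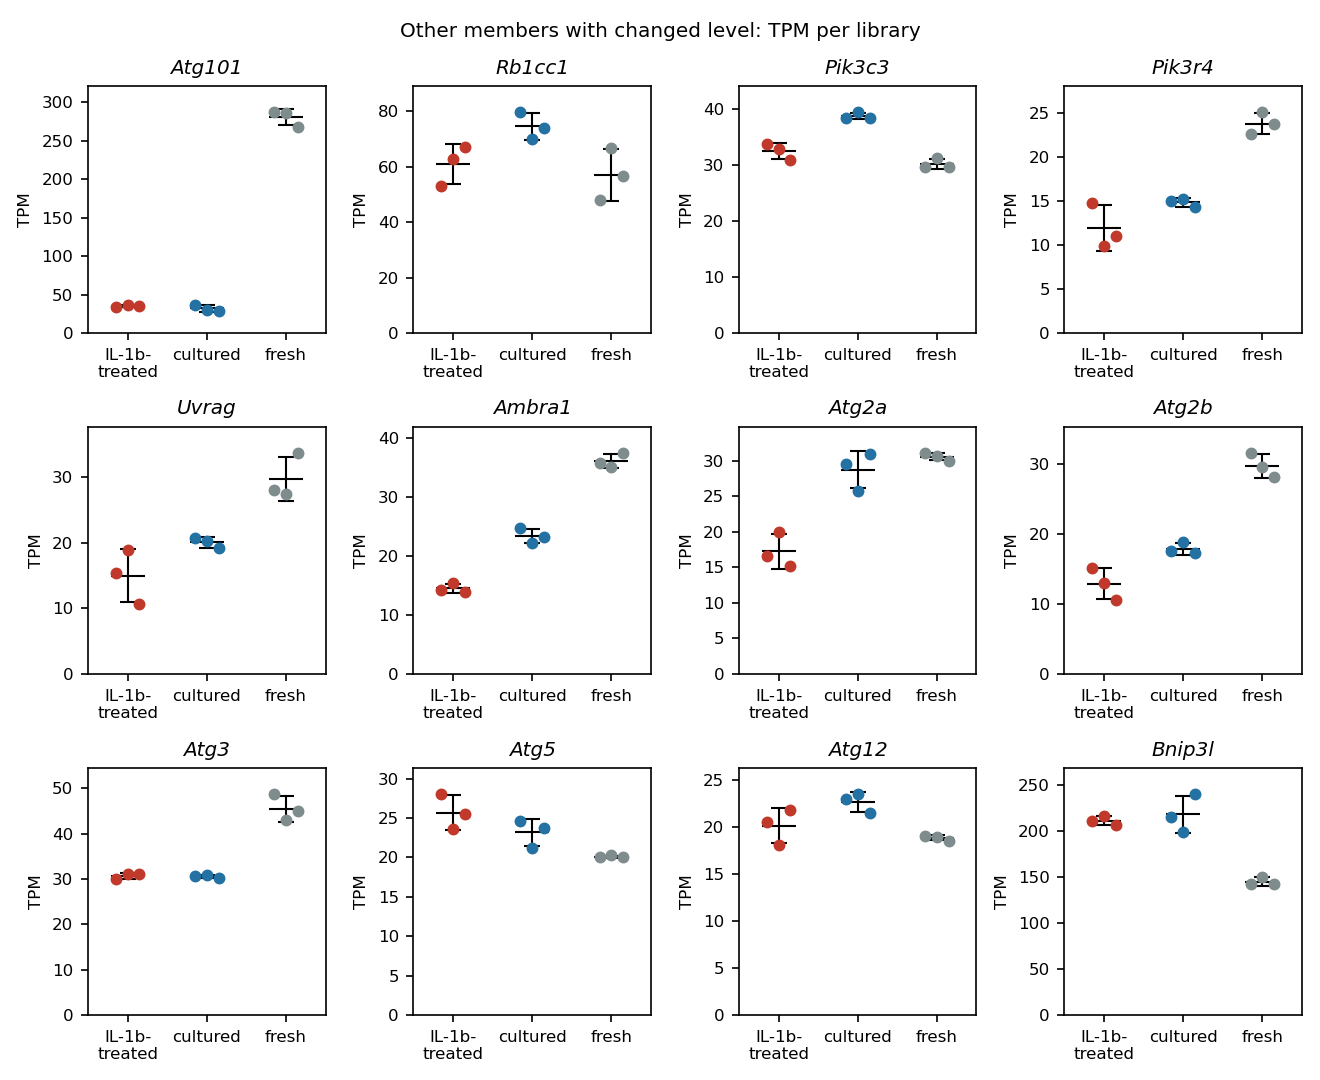
TPM (y axis, from 0) per library of 12 members outside the Atg8 system, in IL-1b-treated, cultured and fresh cells (x axis, left to right); points are libraries, dashes and bars the mean and SD of 3. Atg101 stands at 268 to 287 TPM in fresh cells and at 28.9 to 36.6 in both cultured groups, while Ambra1 has a separate level in each group.

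Atg2a and Atg2b carry lipid from the endoplasmic reticulum to the growing membrane, Atg9a is the scramblase of its seed vesicles, and Wipi1 and Wipi2 bind PI3P. All 4 tested genes of this role were called lower in IL-1b-treated than in cultured cells, beside 13.3% of all genes, with a median of -0.26. After removal of the GC content and length trend the median was -0.10, and 1 of the 4 was called. Atg2a (chr19:6241668-6262335, plus strand) had 16.6, 20 and 15.2 TPM in IL-1b-treated, 29.5, 25.8 and 30.9 in cultured and 31, 30.7 and 30 in fresh cells. The IL-1b-treated libraries were below the rest, and the others overlapped. The difference was -0.43 ± 0.06 with IL-1b (adjusted p = 1.53e-05) and ranged from -0.73 to -0.17 over the alternatives, against 0.12 ± 0.06 after culture (adjusted p = 0.102), where TPM gave -0.09. After culture Atg2a was called higher with the GC content and length trend removed, at 0.54 (adjusted p = 1.4e-08). It was also called without fresh replicate 1 or cultured replicate 2. Wipi2 had 26.9, 29.4 and 26.4 TPM in IL-1b-treated, 36, 42.4 and 42.2 in cultured and 38.2, 36.4 and 37.2 in fresh cells. It was lower with IL-1b by -0.28 ± 0.05 (adjusted p = 0.000439), a call lost once the GC content and length trend was removed.

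Atg2b changed mainly with culture. Its level was 15.2, 13 and 10.6 TPM in IL-1b-treated, 17.6, 18.9 and 17.3 in cultured and 31.5, 29.6 and 28.1 in fresh cells, without overlap. Cultured against fresh cells stood at -0.58 ± 0.06 (adjusted p = 6.67e-08), and IL-1b-treated against cultured cells at -0.21 ± 0.07 (adjusted p = 0.0217). The calls for Atg2b and for Atg9a (-0.24 ± 0.08, adjusted p = 0.0318) with IL-1b were each lost without any of 4 single libraries. Without cultured replicate 1, 2 or IL1b replicate 3 both were lost, Atg2b also without IL1b replicate 2 and Atg9a without cultured replicate 3. The adjusted p was then 0.0589 to 0.154 for Atg2b and 0.0604 to 0.171 for Atg9a. Both were also lost with the GC content and length trend removed, where they stood at -0.07 (adjusted p = 0.511) and -0.04 (adjusted p = 0.812). Atg9a shares 1832 exon bases with Gm29253 on the same strand.

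In the conjugation reactions Atg7 is the E1-like enzyme, Atg3 and Atg10 are E2-like enzymes, and Atg12 is joined to Atg5, which with Atg16l1 guides Atg8 proteins to the membrane. Atg5 and Atg12, the partners of the conjugate, rose in cultured against fresh cells, and Atg3 and Atg7 fell. Atg5 had 28, 23.6 and 25.5 TPM in IL-1b-treated, 24.6, 21.2 and 23.7 in cultured and 20, 20.3 and 20 in fresh cells. Fresh libraries were below all cultured ones. The differences were 0.51 ± 0.08 with IL-1b (adjusted p = 4.94e-05), 0.43 ± 0.08 after culture (adjusted p = 0.000117) and 0.94 ± 0.08 for IL-1b-treated against fresh cells (adjusted p = 8.7e-10). In TPM only the last, at 0.34, was called. Atg12 had 20.5, 18.1 and 21.8 TPM in IL-1b-treated, 23, 23.5 and 21.5 in cultured and 19.1, 19 and 18.5 in fresh cells. It rose by 0.55 ± 0.07 after culture (adjusted p = 2.05e-07), and with IL-1b stood at 0.23 ± 0.06 in the counts (adjusted p = 0.00914) but at -0.17 in TPM. That last call was lost without cultured replicate 3 (adjusted p = 0.0566).

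Atg3 averaged 30.7 ± 0.62 TPM in IL-1b-treated cells, 30.6 ± 0.36 in cultured cells and 45.6 ± 2.87 in fresh cells (SD, n = 3 each). It fell by 0.34 in cultured against fresh cells (adjusted p = 0.000176), and its TPM was level between the cultured groups, where the count difference was 0.33 ± 0.07 (adjusted p = 0.000808). Atg7 averaged 5.62 ± 0.93 TPM in IL-1b-treated cells, 6.25 ± 0.48 in cultured cells and 10.1 ± 1.67 in fresh cells, and was lower after culture by -0.38 ± 0.12 (adjusted p = 0.0107). That call was lost without fresh replicate 3 (adjusted p = 0.0657) or cultured replicate 2 (adjusted p = 0.0578), and with the GC content and length trend removed, where Atg7 stood at -0.13 (adjusted p = 0.384). Atg16l2, a paralog of Atg16l1 and the most abundant gene of this role, was called in no comparison in the counts. In TPM it was called lower in IL-1b-treated against cultured (-0.49) and against fresh cells (-0.62), beside 34.3% and 54.5% of all genes. It had 43, 51.9 and 45.4 TPM in IL-1b-treated, 64.5, 63.6 and 69.1 in cultured and 70.4, 75.3 and 70 in fresh cells. Atg16l1 ranged from 30.3 to 48.3 TPM and stood at -0.15 ± 0.06 after culture, a call lost in 8 alternatives, among them those without fresh replicate 1 or 3 or any cultured library (adjusted p 0.0554 to 0.214). Atg10 had 26 to 75 counts per library and was not called.

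The palindrome CACGTG is the core of the CLEAR element through which TFEB, a transcription factor of autophagy and lysosome genes, acts. It was found in 3 of the 35 member promoters (8.57%) and in 6.02% of all promoters, and the 3 belong to conjugation enzyme genes. Windows of 80 bases (GRCm38.p6) are shown, chr16:45158698-45158777 for Atg3, chr10:44268259-44268338 for Atg5 and chr6:114670927-114671006 for Atg7, all on the plus strand. The capitals mark CACGTG.
Atg3: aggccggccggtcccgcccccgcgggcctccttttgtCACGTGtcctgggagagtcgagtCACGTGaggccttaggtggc
Atg5: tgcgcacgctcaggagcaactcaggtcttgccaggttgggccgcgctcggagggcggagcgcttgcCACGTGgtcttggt
Atg7: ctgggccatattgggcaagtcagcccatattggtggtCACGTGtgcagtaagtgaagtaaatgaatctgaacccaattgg
Atg3 holds 2 copies, the farther one 94 bases before the start. The copy of Atg5 lies 14 bases and that of Atg7 132 bases before it. The RefSeq start used for Atg7 lies inside the annotated gene, which begins at chr6:114643097. The longer GTCACGTG was in the promoters of Atg3 and Atg7 (5.71% of member promoters, 1.85% of all), and the full CLEAR palindrome, which adds an AC at the end, in none of the members and in 0.24% of all. The forkhead motif GTAAACA was in no member promoter and in 3.17% of all. Of the genes with CACGTG, Atg5 rose and Atg3 and Atg7 fell in the counts of cultured against fresh cells. Any part of TFEB in these differences was not tested. Tfeb itself had 7.54, 11.2 and 11.4 TPM in IL-1b-treated, 16.9, 11.8 and 14.1 in cultured and 17.3, 15.9 and 20.6 in fresh cells. Only IL-1b-treated against fresh cells was called for Tfeb, at -0.32 ± 0.12 (adjusted p = 0.0252), and it stood at 0.06 with the GC content and length trend removed. Without IL1b replicate 1 or fresh replicate 3 its adjusted p was 0.16 or 0.103.

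Atg8 proteins coat the autophagosome, and Atg4 proteases trim them before conjugation and release them afterwards. As a family the 5 Atg8 genes rose in both comparisons against fresh cells, with medians of 0.61 for cultured and 0.82 for IL-1b-treated against fresh cells. In IL-1b-treated against cultured cells the median was 0.21 in counts and -0.11 in TPM. Their summed level was 384 ± 6.42 TPM in IL-1b-treated cells, 387 ± 9.88 in cultured cells and 302 ± 4.43 in fresh cells (SD, n = 3 each), so both cultured groups lay above fresh cells and overlapped each other. On the TPM scale 4 of the 5 were called higher after culture (all but Gabarapl2), beside 14.4% of all genes, and 3 of the 5 in IL-1b-treated against fresh cells, beside 11.8%.

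Gabarap and Map1lc3b (LC3B, the usual marker of autophagosomes) were the most abundant of the family. Gabarap had 157, 159 and 164 TPM in IL-1b-treated, 153, 160 and 164 in cultured and 131, 138 and 142 in fresh cells. Map1lc3b had 123, 140 and 141 TPM in IL-1b-treated, 137, 131 and 123 in cultured and 93.1, 87 and 88.8 in fresh cells. For both, every cultured library with or without IL-1b lay above every fresh one. Gabarap rose by 0.48 ± 0.05 (adjusted p = 6.52e-09) and Map1lc3b by 0.61 ± 0.04 (adjusted p = 2.22e-11) in cultured against fresh cells. With IL-1b they stood at 0.34 ± 0.05 (adjusted p = 4.8e-06) and 0.21 ± 0.04 (adjusted p = 4e-04) in the counts, and at 0.01 and 0.04 in TPM. The effective length of Map1lc3b, which RSEM estimates from the transcripts in use, was 1363 to 1478 bases in IL-1b-treated, 1493 to 1632 in cultured and 1688 to 1788 in fresh libraries.

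The remaining Atg8 genes were less abundant or more variable. Gabarapl2 had 87.1, 78.1 and 70.6 TPM in IL-1b-treated, 73.6, 94.2 and 86.5 in cultured and 77.8, 68.8 and 62.7 in fresh cells, which overlapped. Its count difference was 0.52 ± 0.07 after culture (adjusted p = 1.05e-06), not called in TPM, and with IL-1b 0.25 ± 0.07 in the counts against -0.11 in TPM, a call lost without cultured replicate 1 (adjusted p = 0.0696). Map1lc3a (LC3A) had 5.67, 6.64 and 4.97 TPM in IL-1b-treated, 7.43, 5.36 and 6.39 in cultured and 2.54, 1.48 and 2.38 in fresh cells, with fresh libraries below the rest. Map1lc3a rose by 1.49 ± 0.32 after culture (adjusted p = 0.000376), on 14 to 58 counts per library. Gabarapl1 had 4.67, 5.84 and 3.9 TPM in IL-1b-treated, 7.37, 6.25 and 5.04 in cultured and 1.41, 6.1 and 1.41 in fresh cells. Fresh replicate 2 lay among the cultured libraries in TPM, with an estimated effective length of 561 bases against 1594 and 853 in the other fresh libraries. In counts Gabarapl1 had 117, 95 and 68 in IL-1b-treated, 131, 122 and 98 in cultured and 35, 37 and 11 in fresh libraries, and rose by 2.30 ± 0.29 (adjusted p = 4.28e-07). It shares 570 exon bases with a gene on the opposite strand.

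**Figure D3:**
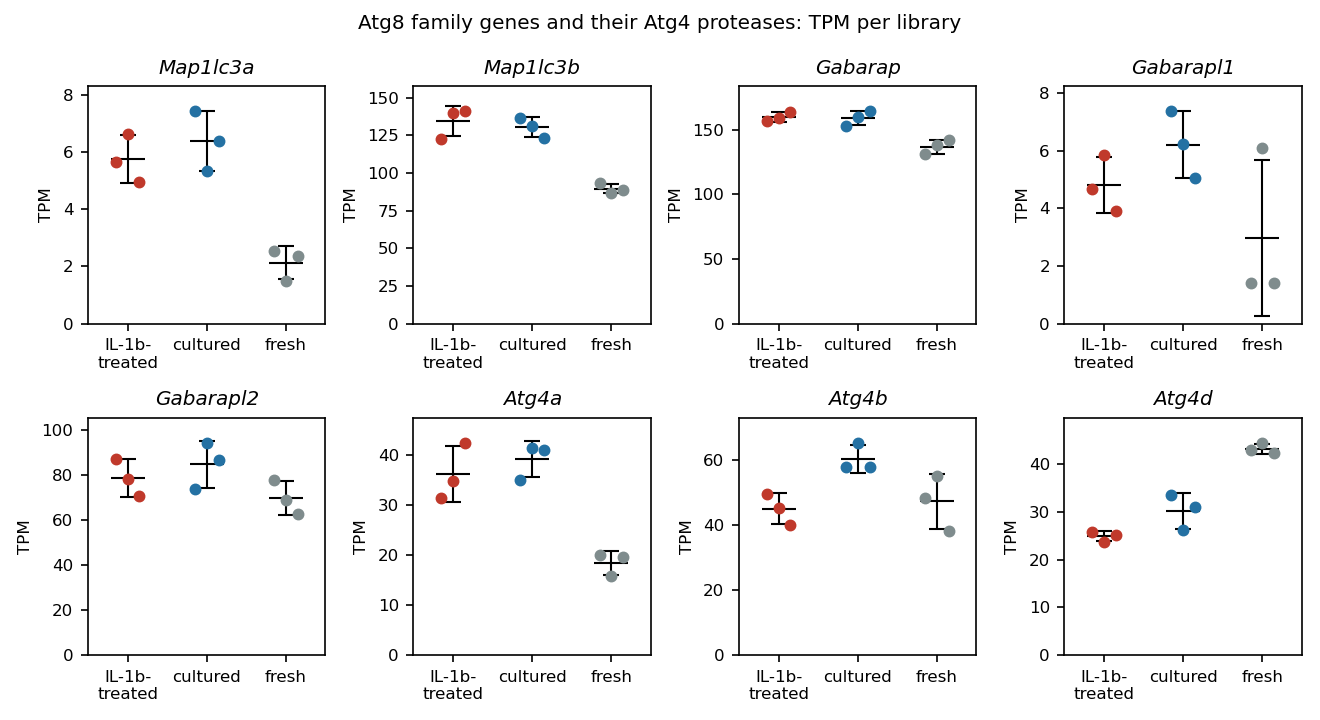
TPM (y axis, from 0) per library of the 5 Atg8 family genes and 3 Atg4 protease genes in IL-1b-treated, cultured and fresh cells (x axis, left to right); points are libraries, dashes and bars the mean and SD of 3. Fresh libraries lie below both cultured groups for Map1lc3a, Map1lc3b, Gabarap and Atg4a, and above them for Atg4d.

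Because the Atg8 genes rose together, the 120 bases before the RefSeq start are shown for the 4 of them in the table (GRCm38.p6, plus strand): chr8:121590318-121590437 for Map1lc3b, chr11:69991250-69991369 for Gabarap, chr6:129533072-129533191 for Gabarapl1 and chr8:111940583-111940702 for Gabarapl2. The capitals mark the GC box GGGCGG on either strand, the core bound by SP factors.
Map1lc3b: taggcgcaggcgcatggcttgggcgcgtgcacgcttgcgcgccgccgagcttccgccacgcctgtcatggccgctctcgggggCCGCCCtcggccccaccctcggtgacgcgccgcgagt
Gabarap: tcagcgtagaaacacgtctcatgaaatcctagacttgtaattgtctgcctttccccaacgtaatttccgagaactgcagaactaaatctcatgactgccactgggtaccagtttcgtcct
Gabarapl1: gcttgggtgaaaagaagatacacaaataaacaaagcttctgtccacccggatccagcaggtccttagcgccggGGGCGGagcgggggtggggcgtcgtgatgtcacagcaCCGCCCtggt
Gabarapl2: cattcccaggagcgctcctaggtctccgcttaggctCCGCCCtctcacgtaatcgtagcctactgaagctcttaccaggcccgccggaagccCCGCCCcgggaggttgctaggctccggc
Map1lc3b, Gabarapl1 and Gabarapl2 held a GC box, and these letters were not in the Gabarap window. That window lies wholly inside the annotated gene, which begins at chr11:69991143, and those of Map1lc3b and Gabarapl1 lie partly inside theirs. Over the 250 bases before the start, 22 of 35 member promoters (62.9%) held GGGCGG and 9 (25.7%) held CCAAT, against 32.7% and 33.8% of all promoters. None of the Atg8 windows held CACGTG or GTAAACA.

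Of the protease genes, Atg4a and Atg4b rose after culture and Atg4d fell. Atg4a had 31.4, 34.7 and 42.4 TPM in IL-1b-treated, 35, 41.4 and 41 in cultured and 20, 15.7 and 19.5 in fresh cells. Its fresh libraries were below the rest, and the difference was 1.05 ± 0.09 (adjusted p = 1.27e-09). Atg4b, the protease with the broadest range of Atg8 substrates, had 49.4, 45.2 and 40 TPM in IL-1b-treated, 57.7, 65.1 and 57.7 in cultured and 48.2, 55 and 38.1 in fresh cells. It rose by 0.50 ± 0.06 (adjusted p = 2.44e-07) and was highest in cultured cells without IL-1b. In IL-1b-treated against fresh cells Atg4b stood at 0.36 ± 0.06 in the counts and at -0.06 in TPM. Atg4d averaged 24.9 ± 1.08 TPM in IL-1b-treated cells, 30.2 ± 3.73 in cultured cells and 43.2 ± 1.11 in fresh cells, and was lower after culture by -0.27 ± 0.07 (adjusted p = 0.00273). That call was lost with the GC content and length trend removed, and Atg4d shares 1405 exon bases with Kri1 on the opposite strand. Atg4c had 8 to 22 counts per library and was not called. None of the 4 was called between IL-1b-treated and cultured cells in the counts. In TPM, Atg4b (-0.42) and Atg4d (-0.27) were called lower by limma with IL-1b (adjusted p of 0.0291 and 0.0466), as were 34.3% of all genes.

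Cargo receptors tether what is to be degraded: Sqstm1 (p62), Nbr1 and Optn bind ubiquitin-tagged cargo, and Bnip3l (NIX) sits on mitochondria. Bnip3l was the most abundant of the 37 genes in both cultured groups. It had 210, 216 and 206 TPM in IL-1b-treated, 215, 199 and 240 in cultured and 143, 150 and 142 in fresh cells, with fresh libraries below all others. Bnip3l rose by 0.81 ± 0.04 after culture (adjusted p = 1.06e-14) and stood at 0.20 ± 0.04 with IL-1b in the counts (adjusted p = 0.000133), against -0.04 in TPM. It had fractional expected counts in all 9 libraries although it overlaps no annotated exon, so part of its reads also matched elsewhere.

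Sqstm1 averaged 144 ± 4.29 TPM in IL-1b-treated cells, 168 ± 3.14 in cultured cells and 161 ± 7.62 in fresh cells (SD, n = 3 each). In counts it rose by 0.30 ± 0.04 after culture (adjusted p = 3.71e-06). With IL-1b, Sqstm1 was called in opposite directions on the 2 scales, at 0.12 ± 0.04 in counts (adjusted p = 0.0379) and -0.22 in TPM. The count call was lost without any 1 of 5 libraries, IL1b replicates 2 and 3 and all cultured ones (adjusted p 0.0574 to 0.192), and Sqstm1 shares 580 exon bases with Mrnip on the opposite strand. Nbr1 averaged 51.9 ± 5.18 TPM in IL-1b-treated cells, 73.2 ± 2.54 in cultured cells and 87.4 ± 9.97 in fresh cells. After culture it stood at 0.12 ± 0.04 in counts (adjusted p = 0.0141) but was called lower in TPM, at -0.25, and the count call was lost without fresh replicate 1 or cultured replicate 3 (adjusted p of 0.0566 and 0.0813). The estimated effective length of Nbr1, which enters TPM, was 2900 to 3422 bases in IL-1b-treated, 2598 to 2960 in cultured and 2160 to 2717 in fresh libraries. Optn was at the limit of detection, with 3, 2 and 5 counts in IL-1b-treated, 9, 15 and 16 in cultured and 17, 25 and 19 in fresh libraries, which is 0.09, 0.08 and 0.21 TPM in IL-1b-treated, 0.34, 0.58 and 0.62 in cultured and 0.47, 1.4 and 0.95 in fresh libraries. Its difference of -1.89 ± 0.66 with IL-1b (adjusted p = 0.0347) was lost in 12 alternatives, among them those without IL1b replicate 1 or 2, or replicate 2 or 3 of either other group, with adjusted p up to 0.12.

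The differences with IL-1b varied with gene length. The 9 members called higher had a median effective length of 1570 bases and the 6 called lower one of 4206 bases. Over the 36 members Spearman's rho between effective length and the log2 fold change was -0.50, and over all 13043 genes -0.37; these are descriptions across genes, which share libraries and are not independent. In all genes the median difference ran from 0.35 in the shortest of 10 length bins to -0.17 in the longest. After removal of the trend with GC content and length, 7 members were called higher (Atg101, Atg3, Atg5, Atg12, Map1lc3b, Gabarap and Sqstm1) and 1 lower (Atg2a), beside 13.0% and 5.57% of all genes. The calls of Ambra1, Atg9a, Atg2b, Wipi2, Gabarapl2, Bnip3l and Optn were then lost, with Gabarapl2 at 0.11 and Bnip3l at 0.06. With library size alone as the scaling, 4 were higher (Atg101, Atg3, Atg5 and Gabarap) and 13 lower, beside 9.14% and 25.1% of all genes. A trend with length was not particular to IL-1b. In cultured against fresh cells rho was -0.31 over members and -0.18 over all genes, and the bin medians ran from 0.35 to -0.14. In IL-1b-treated against fresh cells rho was -0.44 and -0.28, and the bin medians ran from 0.67 to -0.31. The part of RNA length or quality in these differences was not tested.

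**Figure D4:**
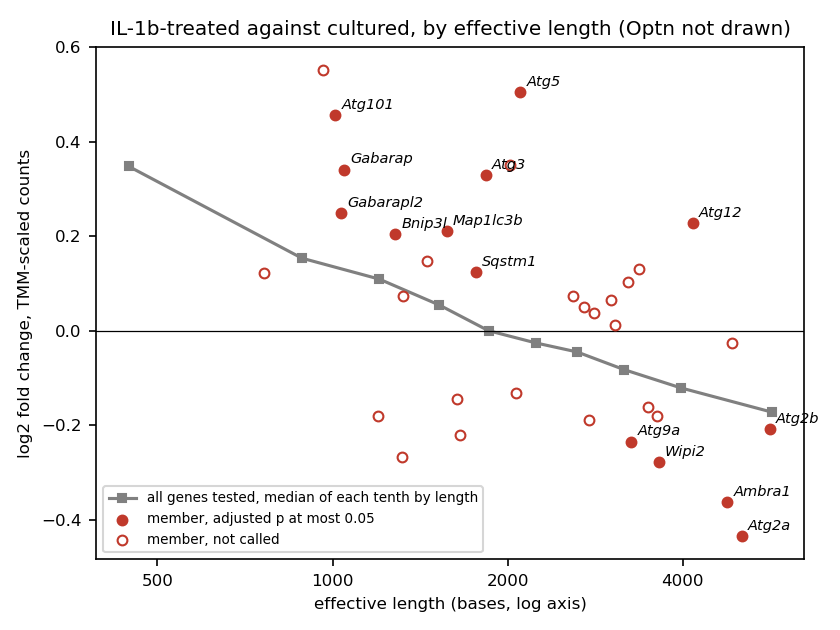
Log2 fold change of TMM-scaled counts in IL-1b-treated against cultured cells (y axis) by effective length in bases (x axis, log scale) for 35 members, with Optn left out; filled circles are called members. Grey squares are medians of all tested genes in 10 bins by length and run from 0.35 to -0.17.

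In IL-1b-treated against cultured cells, 6 of the 14 members with unequal signs on these scales were called on at least 1 scale. Among them Pik3c3 (0.07 in counts, -0.25 in TPM) and Nbr1 (0.04 in counts, -0.50 in TPM) were called in TPM alone. The other 8 were called on neither: besides Rb1cc1 and Becn1, these were Atg13 (0.01 in counts, -0.23 in TPM), Atg14 (0.10 and -0.21), Atg7 (0.13 and -0.15), Atg16l1 (0.07 and -0.11), Atg4a (0.15 and -0.12) and Map1lc3a (0.12 and -0.14). In cultured against fresh cells, Atg13 and Nbr1 were called on at least 1 scale, and 4 on neither: Atg2a, Atg9a (0.09 in counts, -0.15 in TPM), Atg16l2 (0.14 and -0.13) and Atg4c (0.03 and -0.13). With the GC content and length trend removed, Atg2a (0.54), Atg9a (0.47) and Atg16l2 (0.26) were called higher in this comparison.

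**Figure D5:**
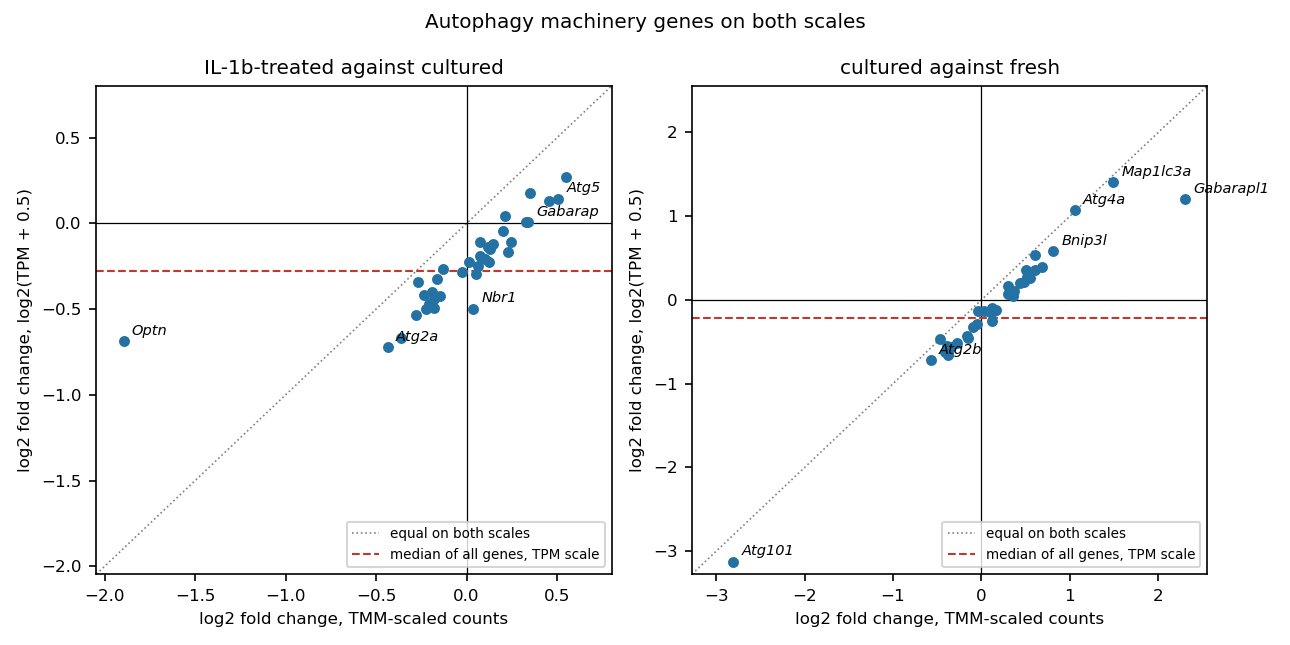
Log2 fold change of the 36 tested members in TMM-scaled counts (x axis) and in log2(TPM + 0.5) (y axis), for IL-1b-treated against cultured cells on the left and cultured against fresh cells on the right; the dashed line is the median of all genes in TPM, at -0.28 and -0.21. Most members lie below the dotted line of equal values, so that 14 on the left and 6 on the right with a positive difference in counts are negative in TPM.

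Genes around this machinery were followed in 6 lists, of which 121 of 122 genes were matched. Their counts of calls stand beside 29.4% of all genes higher and 28.9% lower in cultured against fresh cells, and 15.6% higher and 13.3% lower in IL-1b-treated against cultured cells. In TPM the shares of all genes were 14.4% higher and 36.7% lower after culture, and 2.22% higher and 34.3% lower with IL-1b. Among 17 other selective receptors, 11 rose and 3 fell in cultured against fresh cells, with a median of 0.31 (all genes 0.00), while in TPM 6 were called higher and 6 lower, with a median of 0.07 (all genes -0.21). Tax1bp1, a ubiquitin-binding receptor, had 160 ± 8.73 TPM in IL-1b-treated cells, 172 ± 6.32 in cultured cells and 102 ± 4.26 in fresh cells, and rose by 0.97 ± 0.04 after culture (adjusted p = 2.38e-15). Pink1, the kinase that marks damaged mitochondria, rose by 0.77, while the endosomal regulator Wdr81 and the ER-phagy receptor Retreg1 fell by 0.73 and 0.33. With IL-1b, 5 were higher and 2 lower: the mitophagy receptor Fundc1 stood at 0.56 ± 0.09 and the ferritin receptor Ncoa4 at 0.44 ± 0.05, and their TPM was also higher in every IL-1b-treated library. In TPM 2 of the 17 were called higher and 11 lower with IL-1b. Of 21 tested genes for fusion and late steps, 9 rose and 4 fell after culture (3 higher and 8 lower in TPM), led among genes of at least 1 TPM by Wdr45 (1.04), a PI3P-binding relative of the Wipi genes, the SNARE gene Vamp8 (0.64), Epg5 (-0.68) and Rubcn (-0.57), which encode a tether and a brake on fusion. Rubcnl, named after its values were seen, was below that level, with means of 0.05 TPM in IL-1b-treated cells, 0.03 TPM in cultured cells and 0.447 TPM in fresh cells, and stood at -3.48 after culture. With IL-1b 4 of these genes were higher and 3 lower in counts, and 0 higher and 8 lower in TPM.

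Of 28 genes for upstream kinases and nutrient sensing, 11 rose and 11 fell after culture in counts, and 5 were higher and 11 lower in TPM. Fnip1, a partner of folliculin, had 40.3 ± 3.26 TPM in IL-1b-treated cells, 49.3 ± 1.57 in cultured cells and 13.1 ± 1.57 in fresh cells and rose by 2.13 ± 0.07 (adjusted p = 1.24e-17). Sesn1, an inhibitor of mTORC1, had 183 ± 0.36 TPM in IL-1b-treated cells, 180 ± 1.97 in cultured cells and 76 ± 0.44 in fresh cells and rose by 1.45 ± 0.03. Ddit4 (REDD1), another inhibitor of mTORC1, stood the other way, with 9.81 ± 1.56 TPM in IL-1b-treated cells, 11 ± 0.81 in cultured cells and 106 ± 6.7 in fresh cells and a difference of -3.03 ± 0.10 (adjusted p = 2e-17). With IL-1b 3 were higher and 6 lower in counts, and 0 higher and 16 lower in TPM. Of 8 transcription factor genes 1 rose and 4 fell after culture (1 and 5 in TPM), and 1 was higher and 3 lower with IL-1b (0 and 6 in TPM). Foxo1, which drives autophagy genes and naive T cell homing, had 18 ± 0.92 TPM in IL-1b-treated cells, 27.4 ± 0.80 in cultured cells and 91 ± 1.58 in fresh cells, with differences of -0.29 ± 0.04 with IL-1b (adjusted p = 8.28e-06) and -1.50 ± 0.04 after culture (adjusted p = 3.42e-19). Hif1a rose by 0.48 after culture, and Tfe3, a relative of Tfeb, was lower with IL-1b at -0.39.

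Calls among genes of the lysosome, where autophagosomes end, depended on the scale. Of 29 tested genes of its membrane and hydrolases, 10 rose and 11 fell after culture in counts, with a median of -0.07, and 9 were higher and 7 lower with IL-1b, with a median of 0.01. In TPM 7 were higher and 16 lower after culture (median -0.32, all genes -0.21), and 1 was higher and 17 lower with IL-1b (median -0.33, all genes -0.28). The protease gene Ctsl (1.31) and the membrane protein gene Lamp2 (1.15) rose most after culture, and the glycosidase genes Gaa (-1.08) and Hexa (-0.92) fell most. With IL-1b Ctss, a cysteine protease gene, had 184 ± 5 TPM, against 163 ± 3.7 in cultured cells (SD, n = 3 each), and differed by 0.50 ± 0.04 (adjusted p = 2.77e-09). Of 16 genes of the vacuolar ATPase, which acidifies the lysosome, 6 rose and 3 fell after culture and 7 were higher and 1 lower with IL-1b in counts. In TPM 4 were higher and 9 lower after culture (median -0.22, all genes -0.21), and 1 was higher and 5 lower with IL-1b (median -0.18, all genes -0.28). Atp6v0e had 176 ± 12.4 TPM in IL-1b-treated and 141 ± 4.54 in cultured cells (0.60 ± 0.07, adjusted p = 2.02e-06), and Atp6v1d rose by 1.33 ± 0.05 after culture (adjusted p = 1.97e-16). Atp6v0a1, a membrane subunit, changed most of this list in both comparisons against fresh cells. It had 0, 7 and 5 counts in IL-1b-treated, 9, 8 and 4 in cultured and 119, 80 and 75 in fresh libraries, with means of 0.153 TPM in IL-1b-treated cells, 0.347 TPM in cultured cells and 2.65 TPM in fresh cells. The difference was -3.47 ± 0.50 in cultured against fresh cells (adjusted p = 3.29e-06) and -4.18 ± 0.55 in IL-1b-treated against fresh cells (adjusted p = 5.32e-07), with fresh libraries above all others.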

How the data were processed

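The authors deposited RSEM tables of 9 libraries of polyadenylated RNA, made with a directional kit per the labels' protocols and with STAR and RSEM on mm10 per the submitters' processing notes. Neither versions nor the RSEM strand setting are stated in the sources used here, so antisense reads may not be separated. The deposited expected counts, per the file headers, share reads among matching genes; they were rounded. The deposited TPM values, per the file headers, use estimated effective lengths, and the FPKM values the authors deposited were not used.

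Genes were matched to GENCODE M21 symbols (99.38% of identifiers). The count test was that of edgeR 4.0.16 under R 4.3.3 (TMM, filterByExpr, quasi-likelihood F test, all 9 libraries in 1 fit, biological coefficient of variation 0.0665, Benjamini-Hochberg threshold 0.05). Alternatives were other scalings and filters, DESeq2 1.42.0, limma 3.58.1 on log2(TPM + 0.5, 1 or 0.1), a GC content and length trend removed with mgcv 1.9.3, a replicate block and leaving out each library. Scripts were tested on simulated data. Promoters came from RefSeq GRCm38.p6, which holds 30 of the 37 genes. The members and lists were chosen with earlier results of these data known. All 9 TPM values are given for 22 members: those called with an absolute log2 fold change of at least 0.5 and the most abundant of each of 8 roles. From the other lists, up to 2 genes a direction with at least 1 TPM were named. Floors cover counting error only; the SE and SD also hold the spread between libraries.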

Additional observations from a re-analysis of the deposited data

How the results depend on the processing

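Counts of members called in IL-1b-treated against cultured cells moved most with the scaling. Library size alone gave 4 higher and 13 lower, limma on TPM 0 higher and 13 lower (14 with a pseudocount of 0.1), and the removed GC content and length trend 8 in all, 1 of them lower. In cultured against fresh cells TPM gave 10 higher and 10 lower. The removed trend gave 20 higher and 5 lower there, beside 3644 and 3447 of all 13043 genes. In IL-1b-treated against fresh cells library size alone gave 15 lower and TPM 6 higher and 19 lower (20 with 0.1). Leaving out single libraries gave 7 to 9 higher and 4 to 6 lower for IL-1b-treated against cultured, 16 to 19 and 7 to 9 for cultured against fresh, and 15 to 16 and 8 to 10 for IL-1b-treated against fresh cells. The call was kept in all 21 alternatives for 1 member (0 higher, 1 lower), for 10 higher and 5 lower, and for 6 higher and 6 lower in these comparisons. Correlations of deviations from group means ran from -0.0222 to 0.019 between same-numbered libraries and from -0.0511 to 0.0331 between the others. With 3 libraries a group they cannot show whether replicate numbers pair the samples. The replicate block left the counts at 9 and 6, 18 and 9, and 16 and 9. With the trend removed the block gave the same 8, 1 and 5.

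Signs of values called in either setting reversed mostly in TPM (pseudocounts 0.5, 1 and 0.1 where they differ). For IL-1b-treated against cultured cells the TPM values were Pik3c3 -0.25, Atg12 -0.17, Gabarapl2 -0.11, Sqstm1 -0.22 (-0.23 with 0.1), Nbr1 -0.50 (-0.49 with 1), Bnip3l -0.04, Atf4 -0.13 and Rheb -0.0045 (-0.0044 with 1). For cultured against fresh cells they were Atg13 -0.12 and Nbr1 -0.25. For IL-1b-treated against fresh cells they were Ulk2 -0.24 (-0.23 with 1), Atg13 -0.34 (-0.35 with 0.1), Atg14 -0.49, -0.47 and -0.52, Wipi2 -0.43 (-0.42 with 1), Atg4b -0.06, Sqstm1 -0.16 and Nbr1 -0.74 (-0.75 with 0.1). Library size alone turned Becn1 (-0.14) and Nbr1 (-0.01) in that comparison. The removed trend, with or without the block, turned Atg9a (0.43), Atg2a (0.37) and Tfeb (0.06) there, and with the block Atg4d in cultured against fresh cells (0.001). Of the values of single genes under the alternatives, 2821 kept direction and side of the threshold, 181 lost a call, 66 gained one, 60 reversed with a call in either setting and 81 changed sign without a call in either. The causes were not tested. Depth limits Wipi1, Atg4c, Atg10, Optn and Map1lc3a.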
